A study of Anthurium andraeanum with 18 samples.

Results

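The chloroplast ribosome and the pentatricopeptide repeat (PPR) proteins of the chloroplast were followed in leaves of 2 cultivars of Anthurium andraeanum, Fantasy Love and Oregon, held in the cold. Members were the transcript groups whose best protein match was named chloroplastic and either a ribosomal protein or a pentatricopeptide repeat protein, leaving out those named like plastid genes. The rule found 142 of 132108 transcript groups, of which 41 were chloroplast ribosomal proteins and 101 were chloroplast PPR proteins. The 2 families are described apart. Expression was high enough to test for 40 of the 41 ribosomal members and 70 of the 101 PPR members, among 51670 groups tested in all.

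The plants were in full flower. All were first kept at 25 °C under 12 h of light. Cold-treated plants then passed from 15 °C to 6 °C and on to 4 °C, with 3 days at each step, and leaves were sampled 3 days into the 6 °C step and 3 days into the 4 °C step. The control plants were kept at 25 °C throughout. Their time is labelled 0 days, but in Oregon the control titles say 3 days, so it is not settled when the control leaves were taken relative to the cold ones. There were thus 6 groups, Fantasy Love at 6 °C, Fantasy Love at 4 °C, Fantasy Love at 25 °C, Oregon at 6 °C, Oregon at 4 °C and Oregon at 25 °C, with 3 RNA-seq libraries each that the labels call biological replicates. Leaves at 4 °C had been in the cold for longer than leaves at 6 °C, so temperature and time in the cold cannot be told apart. In a bulk leaf sample, fewer cells of a type and less RNA per cell cannot be told apart either. In each cultivar the comparisons of 6 °C and of 4 °C with 25 °C use the same 3 control libraries.

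The chloroplast has its own bacterial-type ribosome, with a 30S small and a 50S large subunit, which translates the proteins encoded in the plastid genome, many of them subunits of the photosynthetic complexes. Its ribosomal RNAs and some of its proteins are made in the plastid, while the remaining proteins are encoded in the nucleus, translated in the cytosol and imported. PPR proteins are also encoded in the nucleus: each binds a short stretch of organelle RNA through its repeats and protects, splices, edits or helps translate that RNA. PPR proteins of the PLS class, which often end in a DYW domain, act mostly in C-to-U RNA editing, and the other class acts mostly in stability, processing, splicing and translation. Arabidopsis and rice mutants that lack some of these proteins green poorly in the cold.

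The libraries held 14769978 to 21911157 estimated counts. Levels below are CPM, the counts scaled to library size and then by TMM, in which a trimmed mean over the genes is set equal between libraries. Levels of different genes are compared only in the deposited length-scaled unit, TPM. A member was called when edgeR's quasi-likelihood test gave a Benjamini-Hochberg adjusted p, over all genes tested, below 0.05 and the absolute log2 fold change was at least 1. The scale itself matters in these data: the median log2 fold change of all genes tested in the 4 comparisons of cold with 25 °C was 0.30 to 0.39 with TMM scaling and 0.56 to 0.87 with library size alone. Family medians are therefore set beside the median of all genes. Replicate 2 of Fantasy Love at 6 °C stood apart from the other cold libraries, with a score of 45.8 on the first principal component, against -67.2 and -125 in the other 2 libraries of its group.

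The families differed in level. The tested ribosomal members had a median of 57.8 TPM over the 18 libraries, with a range of 1.79 to 207 TPM, and the tested PPR members had a median of 2.40 TPM, with a range of 0.493 to 26.2 TPM. The most abundant ribosomal members were RPL35 (DN45251_c0_g3), at 207 TPM, RPL12 (DN49466_c0_g1), the protein of the flexible stalk that recruits translation factors, at 145 TPM, and RPS20 (DN51809_c0_g1), at 134 TPM. Among the PPR proteins, At2g30100 (DN44225_c0_g1) was highest at 26.2 TPM, followed by MRL1 (DN54947_c1_g1), which in Arabidopsis and Chlamydomonas stabilises the messenger of the Rubisco large subunit, at 18.4 TPM. The 101 PPR groups carried 49 protein names, and the name At1g08070 alone was given to 13 groups. Such groups can be gene copies, alleles or pieces of a transcript, and reads may be split among them, so their separate values are uncertain. The 31 PPR groups that were not tested all belonged by name to the PLS class, were 210 to 529 bases long, and had 12 to 66 counts over all 18 libraries. The ribosomal group that was not tested, a copy named RPL3B, was 262 bases long and had 17 counts.

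Transcripts of chloroplast ribosomal proteins were lower at 6 °C than at 25 °C in both cultivars. In Oregon, the 41 groups summed to 1829.8, 1788 and 2043 CPM at 6 °C, against 3711, 3722 and 3069 CPM at 25 °C. In Fantasy Love they summed to 2644, 2452 and 2710.3 CPM at 6 °C, against 5583, 5166 and 5346 CPM at 25 °C. The cold and control libraries did not overlap in either cultivar. Of the 40 members tested in Oregon at 6 °C, 18 fell and 1 rose, where 20.1% of all genes tested fell and 28.3% rose, 48.4% in all. In Fantasy Love at 6 °C, 21 fell and 2 rose, where 16.6% of all genes tested fell and 23.8% rose, 40.4% in all. The median log2 fold change of the 40 members was -0.88 in Oregon and -1.13 in Fantasy Love, beside 0.36 and 0.30 over all genes tested in the same comparisons. With library size alone, the median was -0.55 in Oregon, with 12 falls and 2 rises, and -0.86 in Fantasy Love, with 17 falls and 3 rises, beside 0.69 and 0.56 over all genes. With DESeq2, 14 fell and 1 rose in Oregon. Across the cultivars, 15 members fell in both, which is 83.3% of those that fell in Oregon and 71.4% of those that fell in Fantasy Love. The same overlap over all genes tested is not given, so these shares are not read as a trait of the family. Without replicate 2 of Fantasy Love at 6 °C, 21 members fell and 2 rose in that cultivar.

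**Figure D1:**
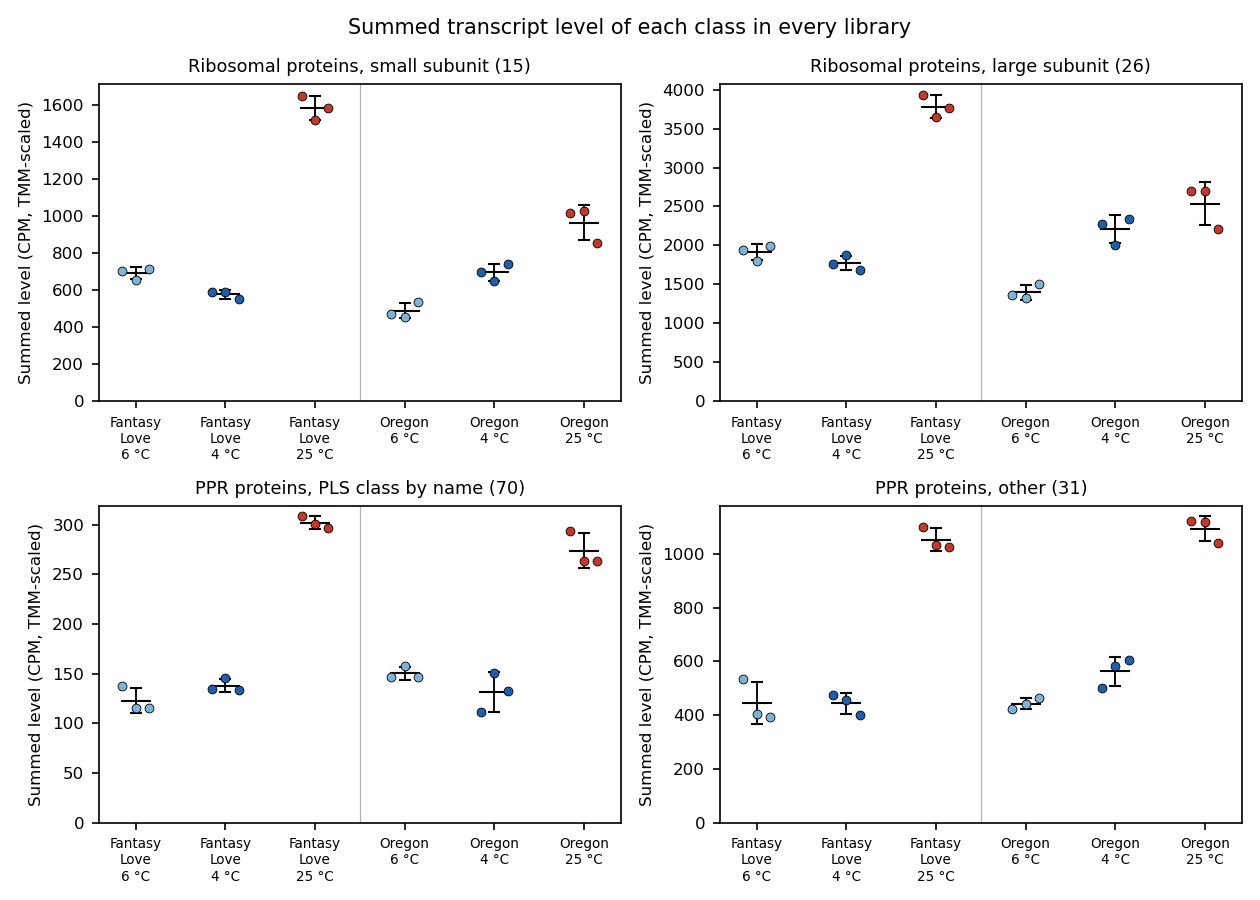
Summed level in CPM, on linear axes from 0, of the small-subunit and large-subunit ribosomal proteins and of the 2 classes of PPR proteins in every library; points are libraries and bars are the mean and SD of 3 libraries. The large-subunit sums of Oregon at 4 °C overlap those of Oregon at 25 °C, and in every other panel and cold group all libraries lie below those of their cultivar at 25 °C.

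At 4 °C the cultivars differed. In Fantasy Love, the ribosomal groups summed to 2347, 2463 and 2234 CPM at 4 °C, against 5583, 5166 and 5346 CPM at 25 °C, with no overlap. In Oregon they summed to 2973, 2651 and 3079.6 CPM at 4 °C, against 3711, 3722 and 3069 CPM at 25 °C, and the ranges overlapped. Of the 40 members tested, 22 fell and 2 rose in Fantasy Love at 4 °C, where 21.6% of all genes tested fell and 28.5% rose, 50% in all. In Oregon at 4 °C, 11 fell and 5 rose, where 20.6% of all genes tested fell and 28.4% rose, 49% in all. The median log2 fold change was -1.31 in Fantasy Love and -0.30 in Oregon, beside 0.39 over all genes tested in each. The Oregon value depended on the scale. With library size alone, 20 fell and 3 rose in Fantasy Love at 4 °C and the median was -0.82, beside 0.87 over all genes, while in Oregon 8 members fell and 9 rose and the median was 0.06, beside 0.75. In the deposited TPM, the Fantasy Love sum was 2391 ± 144 at 4 °C and 3889 ± 140.2 at 25 °C, and the Oregon sum was 2618 ± 101 at 4 °C and 2376 ± 182 at 25 °C (SD, n = 3 each). The members that fell at 4 °C in both cultivars numbered 10, which is 45.5% of those in Fantasy Love and 90.9% of those in Oregon, again without an overlap over all genes beside them.

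Among small-subunit proteins, 15 of which were tested, 6 fell in Oregon at 6 °C, 4 in Oregon at 4 °C, 9 in Fantasy Love at 6 °C and 9 in Fantasy Love at 4 °C, and none was called as a rise. In the same order, 20.1%, 20.6%, 16.6% and 21.6% of all genes tested fell and 28.3%, 28.4%, 23.8% and 28.5% rose. A group of PSRP3 had the largest fall in 3 of the 4 comparisons, and RPS10 had it in Fantasy Love at 6 °C. RPS10 (DN47417_c0_g6), a protein of the subunit head, had 15.0, 14.6 and 16.1 CPM in Oregon at 6 °C and 20.2, 28.8 and 29.0 CPM in Oregon at 4 °C, against 54.9, 64.6 and 53.2 CPM in Oregon at 25 °C. In Fantasy Love, RPS10 had 25.0, 29.3 and 17.1 CPM at 6 °C and 18.3, 11.3 and 9.77 CPM at 4 °C, against 135, 99.5 and 123 CPM at 25 °C. Every cold library was below every control library of its cultivar. The log2 fold changes of RPS10 were -1.92 ± 0.25 (SE) in Oregon at 6 °C, -1.15 ± 0.25 in Oregon at 4 °C, -2.32 ± 0.26 in Fantasy Love at 6 °C and -3.18 ± 0.27 in Fantasy Love at 4 °C, with edgeR adjusted p = 7.38e-06, 0.000887, 1.58e-06 and 3.89e-08. The Oregon call at 4 °C was lost without replicate 1 of Oregon at 4 °C, and with library size alone or quantile scaling.

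RPS31 (DN41680_c0_g3), a small basic protein that plastid ribosomes share with those of some bacteria, had 47.3, 44.0 and 49.3 CPM in Oregon at 6 °C and 48.0, 35.7 and 43.2 CPM in Oregon at 4 °C, against 161, 160.2 and 130.1 CPM in Oregon at 25 °C. In Fantasy Love, RPS31 had 46.2, 34.3 and 75.7 CPM at 6 °C and 21.1, 24.5 and 24.1 CPM at 4 °C, against 197, 193 and 211 CPM at 25 °C. The cold libraries were all lower than the controls, by a log2 fold change of RPS31 of -1.68 ± 0.23, -1.83 ± 0.23, -1.94 ± 0.23 and -3.11 ± 0.25 in Oregon at 6 °C, Oregon at 4 °C, Fantasy Love at 6 °C and Fantasy Love at 4 °C. RPS6 (DN34277_c1_g1, S6 alpha) also fell in all 4 comparisons, by 1.98, 1.12, 1.74 and 1.72 on the log2 scale in the same order, the Oregon call at 4 °C being lost without replicate 1 of that group and with library size alone or quantile scaling. RPS1 (DN52727_c0_g2), which binds messenger RNA at the start of translation, was called in 1 cultivar. Its log2 fold change was -0.65 and -0.63 in Oregon at 6 °C and 4 °C, not called. It fell by 1.18 and 1.52 in Fantasy Love at 6 °C and 4 °C, the call at 6 °C being lost with library size alone. A second RPS1 group (DN50920_c0_g3) was called in none of the 4 comparisons, with log2 fold changes of -0.35 to -0.72.

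The small subunit also holds proteins with no counterpart in the Escherichia coli ribosome, which were named plastid-specific ribosomal proteins (PSRP); PSRP3 has relatives in cyanobacteria. PSRP3 was the best match of 3 groups that behaved differently. The group DN40243_c2_g3 had 3.89, 3.91 and 4.197 CPM in Oregon at 6 °C and 2.84, 3.83 and 2.28 CPM in Oregon at 4 °C, against 38.4, 35.7 and 29.9 CPM in Oregon at 25 °C. In Fantasy Love, DN40243_c2_g3 had 8.32, 13.6 and 4.02 CPM at 6 °C and 5.09, 2.88 and 2.33 CPM at 4 °C, against 49.2, 33.95 and 37.2 CPM at 25 °C. It fell in all 4 comparisons without overlap, by 3.11, 3.53, 2.21 and 3.54 on the log2 scale in Oregon at 6 °C, Oregon at 4 °C, Fantasy Love at 6 °C and Fantasy Love at 4 °C. The group DN39629_c0_g1 had 5.23, 5.44 and 5.25 CPM in Oregon at 6 °C and 11.5, 10.2 and 10.5 CPM in Oregon at 4 °C, against 8.42, 9.25 and 9.53 CPM in Oregon at 25 °C. In Fantasy Love, DN39629_c0_g1 had 10.2, 13.9 and 14.5 CPM at 6 °C and 7.92, 8.06 and 9.65 CPM at 4 °C, against 38.3, 39.9 and 35.9 CPM at 25 °C. DN39629_c0_g1 fell in Fantasy Love, by 1.57 at 6 °C and 2.15 at 4 °C, with log2 fold changes of -0.77 and 0.24 in Oregon at 6 °C and 4 °C, not called. The third group, DN40243_c2_g5, had the same calls, with falls of 1.69 and 2.10 in Fantasy Love at 6 °C and 4 °C. PSRP2 (DN32728_c2_g1), an RNA-binding protein, was called in none of the 4 comparisons, with log2 fold changes of -0.76 and 0.25 in Oregon at 6 °C and 4 °C and -0.99 and -0.58 in Fantasy Love at 6 °C and 4 °C.

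In the large subunit, 25 of 26 groups were tested. Of these, 12 fell and 1 rose in Oregon at 6 °C, 7 fell and 5 rose in Oregon at 4 °C, 12 fell and 2 rose in Fantasy Love at 6 °C, and 13 fell and 2 rose in Fantasy Love at 4 °C. The shares of all genes tested, in that order, were 20.1%, 20.6%, 16.6% and 21.6% falling and 28.3%, 28.4%, 23.8% and 28.5% rising. The largest fall of any ribosomal member in each of these comparisons was that of PSRP6 (DN29621_c0_g1), the plastid-specific protein 6 of the 50S subunit. PSRP6 had 2.43, 2.21 and 4.29 CPM in Oregon at 6 °C and 3.02, 3.83 and 3.73 CPM in Oregon at 4 °C, against 60.3, 60.7 and 42.6 CPM in Oregon at 25 °C. In Fantasy Love, PSRP6 had 5.17, 10.97 and 3.91 CPM at 6 °C and 1.89, 2.67 and 0.998 CPM at 4 °C, against 72.2, 67.9 and 75.9 CPM at 25 °C. All cold libraries were below the controls of their cultivar. The log2 fold changes of PSRP6 were -4.19 ± 0.40 and -3.95 ± 0.39 in Oregon at 6 °C and 4 °C and -3.43 ± 0.38 and -5.29 ± 0.42 in Fantasy Love at 6 °C and 4 °C (SE; edgeR adjusted p = 2.23e-07, 3.56e-07, 1.76e-06 and 2.34e-08).

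RPL10 (DN52005_c2_g1), which anchors the L12 stalk to the ribosome, had 6.51, 6.68 and 9.40 CPM in Oregon at 6 °C and 5.97, 11.8 and 8.90 CPM in Oregon at 4 °C, against 55.6, 58.7 and 45.4 CPM in Oregon at 25 °C. In Fantasy Love, RPL10 had 28.4, 24.2 and 16.7 CPM at 6 °C and 20.8, 16 and 13.4 CPM at 4 °C, against 84.2, 83.5 and 88.6 CPM at 25 °C. The groups did not overlap, and the log2 fold changes of RPL10 were -2.82 and -2.58 in Oregon at 6 °C and 4 °C and -1.89 and -2.35 in Fantasy Love at 6 °C and 4 °C, each called. RPL21 (DN38223_c0_g1), RPL31 (DN47014_c0_g3), RPL28 (DN48094_c1_g1) and RPL1 (DN37484_c2_g1), the protein of the mobile stalk at the exit side of the ribosome, also fell in all 4 comparisons. Their log2 fold changes ran from -1.36 for RPL28 to -2.03 for RPL21 in Oregon at 4 °C, and from -1.83 for RPL1 to -2.78 for RPL21 in Fantasy Love at 4 °C; the RPL28 call in Oregon at 4 °C was lost with library size alone. RPL19 (DN37722_c1_g1) was called in Oregon, where it had 3.83, 7.36 and 6.06 CPM at 6 °C and 2.35, 4.46 and 3.02 CPM at 4 °C, against 15.5, 14.02 and 12.8 CPM at 25 °C. It fell there by 1.29 and 2.09, and the fall at 6 °C was lost without replicate 1 of that group and with library size alone. In Fantasy Love its log2 fold changes were -0.13 and -0.91 at 6 °C and 4 °C, not called. RPL5 (DN41623_c0_g1), which carries the 5S ribosomal RNA into the subunit, fell by 1.59 in Oregon at 6 °C and by 1.27 and 1.06 in Fantasy Love at 6 °C and 4 °C, with -0.85 in Oregon at 4 °C, not called. The Fantasy Love call of RPL5 at 4 °C was lost without replicate 1 of Fantasy Love at 25 °C or replicate 3 of Fantasy Love at 4 °C. RPL35 (DN45251_c0_g3), the most abundant member, had 104, 101 and 106 CPM in Oregon at 6 °C, against 228, 225 and 189 CPM in Oregon at 25 °C. It fell by 1.04, a call lost without replicate 1 of Oregon at 25 °C, with DESeq2 or its size factors, without groups under 50 counts and with library size alone. In Fantasy Love it fell by 1.38 at 6 °C and 1.88 at 4 °C.

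The rises were few. RPL4 (DN41600_c1_g3), which lines the tunnel through which the new protein leaves, had 223, 179.6 and 223 CPM in Oregon at 4 °C, against 98.0, 97.6 and 90.5 CPM in Oregon at 25 °C. Its libraries at 4 °C were all above its controls, with a log2 fold change of 1.13 ± 0.19 (SE, edgeR adjusted p = 7.15e-05), while at 6 °C it had 104, 94.4 and 112 CPM and a log2 fold change of 0.12, not called. RPL15 (DN36174_c0_g1) had 148, 141 and 162 CPM in Oregon at 4 °C, against 82.6, 78.0 and 63.3 CPM in Oregon at 25 °C, and rose by 1.01. L19-1 (At4g17560, DN36456_c0_g2) had 206, 185 and 214 CPM in Oregon at 4 °C, against 96.1, 109 and 93.2 CPM in Oregon at 25 °C, and rose by 1.02. The groups of both did not overlap, but their rises lay close to the fold minimum: leaving out replicate 3 of Oregon at 4 °C or replicate 3 of Oregon at 25 °C ended each call, as did replicate 1 of Oregon at 25 °C for L19-1.

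The other 2 rises in Oregon at 4 °C were of groups with low levels. An L12 group with no gene symbol (DN51475_c1_g3) had 6.58, 8.69 and 6.49 CPM in Oregon at 4 °C, against 0.991, 0.967 and 0.268 CPM in Oregon at 25 °C. It had 13.9, 11.2 and 10.6 CPM in Fantasy Love at 4 °C, against 2.88, 2.55 and 2.11 CPM in Fantasy Love at 25 °C. It rose by 3.28 in Oregon and 2.24 in Fantasy Love on the log2 scale, with no overlap. At 6 °C the log2 fold changes of DN51475_c1_g3 were 1.59 in Oregon and 1.53 in Fantasy Love; in Fantasy Love the groups overlapped. The Oregon call was lost without replicate 3 of Oregon at 6 °C or at 25 °C and with quantile scaling, and the Fantasy Love call without replicate 1 of Fantasy Love at 6 °C or replicate 3 of Fantasy Love at 25 °C. The main RPL12 group (DN49466_c0_g1), far more abundant, was not called in any of the 4 comparisons. A short second RPL35 group (DN45251_c0_g4) had 1.03, 2.11 and 1.88 CPM in Oregon at 4 °C, against 0.354, 0.604 and 0.335 CPM in Oregon at 25 °C, a log2 fold change of 1.94 whose call was lost with quantile scaling. RPL3B (DN43901_c0_g1, L3-2) rose in Fantasy Love, by 1.33 and 1.26 at 6 °C and 4 °C, and was not called in Oregon. It had 11.02, 14.5 and 14.6 CPM in Fantasy Love at 6 °C and 11.7, 11.9 and 14.6 CPM in Fantasy Love at 4 °C, against 6.03, 4.51 and 5.43 CPM in Fantasy Love at 25 °C. In Oregon, RPL3B had 22.9, 24.9 and 17.9 CPM at 6 °C and 28.1, 26.2 and 22.7 CPM at 4 °C, against 24.4, 22.6 and 17.1 CPM at 25 °C, where the groups overlapped.

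**Figure D2:**
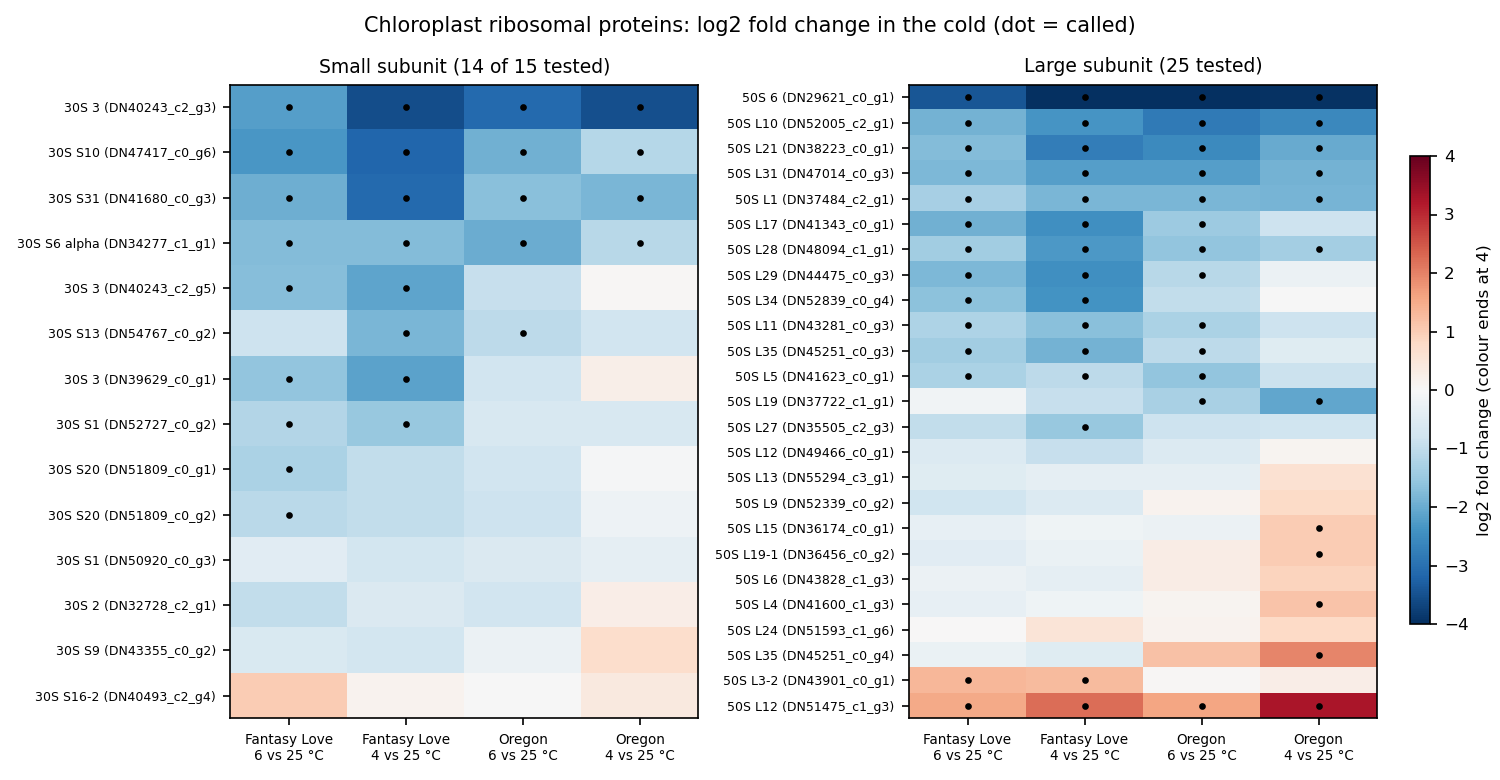
Log2 fold change of the tested ribosomal groups (1 small-subunit group is not drawn; rows, with protein name and group) in the 4 comparisons of cold with 25 °C (columns), by subunit; blue is lower and red is higher in the cold, and a dot marks a called change. The rows with dots in all 4 columns include PSRP3 (DN40243_c2_g3), RPS10, PSRP6, RPL10 and RPL21, and the column of Oregon at 4 °C holds 5 red cells with dots, against 1 or 2 in the other columns.

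The difference between the cultivars was tested directly, as the response of Fantasy Love minus that of Oregon. For the response to 4 °C, 16 of the 40 ribosomal members differed, all with a lower value in Fantasy Love, where 5.04% of all genes tested had a lower value and 3.86% a higher value in Fantasy Love, 8.89% in all. They were 6 of 15 small-subunit and 10 of 25 large-subunit groups, and the median difference over the 40 members was -0.96, beside -0.01 over all genes tested. With library size alone, 14 were lower in Fantasy Love and 1 was higher. Of the 16 calls, 13 held with each of the 18 libraries left out in turn; those of RPL12, RPS13 and RPS31 did not. RPL12 was lost without replicate 1 or 3 of either cultivar at 4 °C, replicate 1 of Fantasy Love at 25 °C or replicate 3 of Oregon at 25 °C. RPS13 was lost without replicate 2 of Fantasy Love at 4 °C, replicate 1 of Oregon at 4 °C or replicate 3 of Oregon at 25 °C, and RPS31 was lost without replicate 3 of Oregon at 25 °C.

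RPL34 (DN52839_c0_g4), a small protein of the large subunit, had the lowest adjusted p of these differences. It had 47.5, 35.6 and 35.5 CPM in Fantasy Love at 4 °C, against 199.6, 206 and 210.2 CPM in Fantasy Love at 25 °C. It had 98.0, 88.7 and 102 CPM in Oregon at 4 °C, against 92.9, 112 and 89.2 CPM in Oregon at 25 °C. The Fantasy Love libraries at 4 °C were all below their controls, and the Oregon libraries overlapped theirs. The log2 fold change of RPL34 was -2.38 in Fantasy Love and -0.03 in Oregon, a difference of -2.35 ± 0.26 (SE, edgeR adjusted p = 3.63e-05). RPL29 (DN44475_c0_g3), which sits at the exit of the tunnel, had 44.2, 29.98 and 25.4 CPM in Fantasy Love at 4 °C, against 196, 181 and 172 CPM in Fantasy Love at 25 °C. It had 81.9, 82.4 and 95.7 CPM in Oregon at 4 °C, against 108, 109.9 and 92.1 CPM in Oregon at 25 °C. Its difference between cultivars was -2.21 ± 0.32 (edgeR adjusted p = 0.000314), and its Oregon groups overlapped.

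The other differences fell into 3 patterns. The groups DN39629_c0_g1 and DN40243_c2_g5 of PSRP3, with differences of -2.39 and -2.15, RPL35 (DN45251_c0_g3), with -1.39, RPL17 (DN41343_c0_g1), another protein of the tunnel exit, with -1.60, and RPS13 (DN54767_c0_g2), with -1.06, were called as lower in Fantasy Love at 4 °C and not called in Oregon, as were RPL34 and RPL29. RPS10, with -2.04, and RPS31, with -1.27, were called as lower in both cultivars, and by more in Fantasy Love. The remaining members were called in neither cultivar or as higher in Oregon. RPL4, RPL15 and L19-1, with differences of -1.31, -1.19 and -1.29, had risen in Oregon. The members RPS9 (DN43355_c0_g2), RPL9 (DN52339_c0_g2), RPL6 (DN43828_c1_g3) and RPL12, with -1.45, -1.31, -1.26 and -1.01, had log2 fold changes of -0.75, -0.56, -0.35 and -0.92 in Fantasy Love and of 0.70, 0.75, 0.90 and 0.10 in Oregon, none of them called. Of the 40 members, 1 differed in the response to 6 °C, RPL3B, which was higher in Fantasy Love by 1.29, where 5.06% of all genes tested were higher and 3.97% were lower, 9.04% in all. That count was 0 with no filter on low counts, 4 without replicate 3 of Fantasy Love at 6 °C and 2 without replicate 2 of Oregon at 25 °C.

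**Figure D3:**
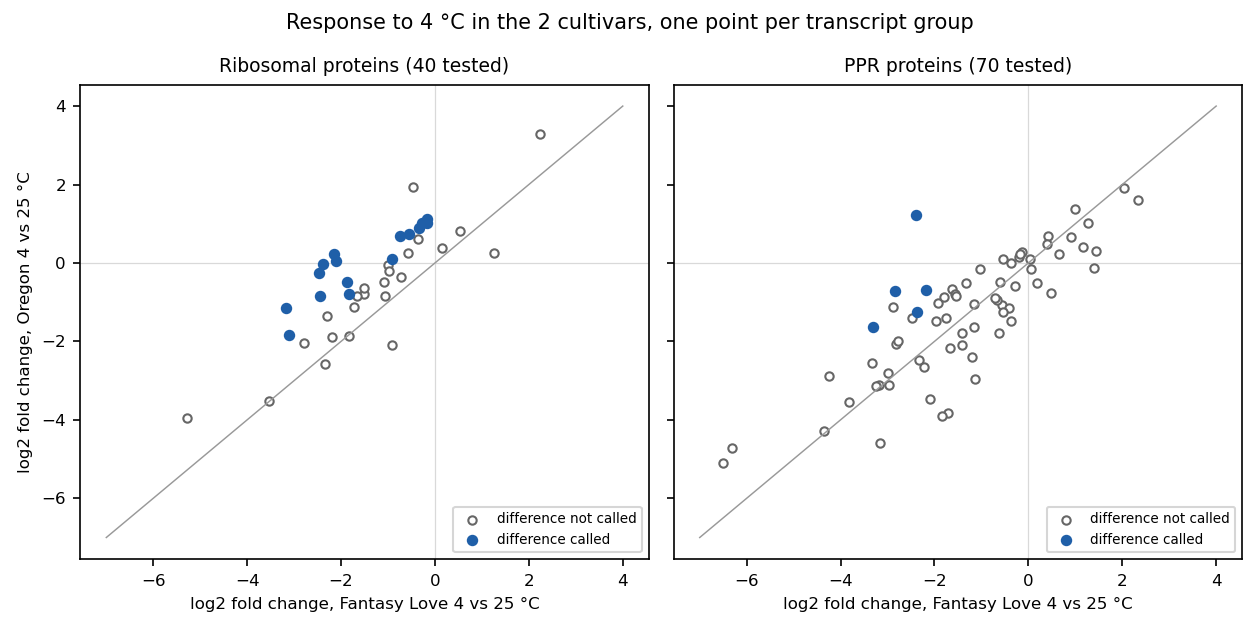
Log2 fold change at 4 °C against 25 °C in Fantasy Love (x axis) and Oregon (y axis), with 1 point for each tested group and a line where both are equal; filled points are groups whose difference between cultivars was called. In the ribosomal panel 16 filled points lie above the line, and in the PPR panel 5 do.

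The controls themselves differed between cultivars. At 25 °C, 10 of the 40 ribosomal members were higher in Fantasy Love than in Oregon and 1 was lower, where 8.35% of all genes tested were higher and 7.05% were lower, 15.4% in all. RPL9 (DN52339_c0_g2) had 239.6, 244 and 267 CPM in Fantasy Love, against 50.7, 64.0 and 50.9 CPM in Oregon, a log2 fold change of 2.18 ± 0.18 (SE, edgeR adjusted p = 2.45e-07). The groups DN39629_c0_g1 and DN40243_c2_g5 of PSRP3 were higher in Fantasy Love by 2.07 and 2.02, RPL17 by 1.49, RPS9 by 1.29, RPS20 (DN51809_c0_g1) by 1.26 and RPL34 by 1.07, without overlap. RPS10 was higher by 1.05, a call lost without replicate 1 of Fantasy Love at 25 °C or replicate 3 of Oregon at 25 °C. The groups DN51475_c1_g3 of L12 and DN45251_c0_g4 of RPL35 were higher by 1.75 and 2.04. The first call was lost without any 1 of the Oregon libraries at 25 °C or replicate 1 or 2 of Fantasy Love at 25 °C, and the second without replicate 1 of Fantasy Love at 25 °C or replicate 1 or 3 of Oregon at 25 °C. RPL3B was lower in Fantasy Love, with 6.03, 4.51 and 5.43 CPM, against 24.4, 22.6 and 17.1 CPM in Oregon, and the groups did not overlap. The comparison at 25 °C and the differences in response use the same control libraries, so their values stand side by side and neither supports the other.

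Fewer members differed between the cold steps. In Oregon, 4 of 40 ribosomal members were higher at 4 °C than at 6 °C and none was lower, where 0.91% of all genes tested were higher and 1.32% were lower, 2.23% in all. In Fantasy Love 4 were lower and none was higher, where 7.19% of all genes tested were lower and 1.83% were higher, 9.02% in all. RPL15 had 148, 141 and 162 CPM in Oregon at 4 °C, against 61.5, 59.6 and 67.6 CPM in Oregon at 6 °C, a log2 fold change of 1.26 that held with each library left out. The other 3 were RPL4, PSRP3 (DN39629_c0_g1) and PSRP2, each higher by 1.01, next to the fold minimum. The Oregon count was 1 without replicate 1 or 3 of Oregon at 4 °C or replicate 2 of Oregon at 6 °C, and 8 without replicate 3 of Oregon at 6 °C. In Fantasy Love, PSRP6 was lower at 4 °C than at 6 °C by 1.86, PSRP3 (DN40243_c2_g3) by 1.33, RPS31 by 1.16 and RPL21 by 1.04. The libraries of PSRP3 (DN40243_c2_g3) overlapped, and these 4 members are near the share of all genes tested that were lower. The Fantasy Love count was 7 without replicate 1 of Fantasy Love at 4 °C or replicate 3 of Fantasy Love at 6 °C, 0 when fitted on these groups alone, and 1 with library size alone or quantile scaling.

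Transcripts of chloroplast PPR proteins were lower in the cold in both cultivars and at both steps. In Oregon the 101 groups summed to 571, 599 and 609.7 CPM at 6 °C and 613, 732 and 739 CPM at 4 °C, against 1415, 1383 and 1305 CPM at 25 °C. In Fantasy Love they summed to 673, 521 and 511 CPM at 6 °C and 610.0, 602 and 536 CPM at 4 °C, against 1411, 1336 and 1320.2 CPM at 25 °C. No cold library reached the control libraries of its cultivar. Of the 70 members tested, 36 fell and 3 rose in Oregon at 6 °C, 36 fell and 2 rose in Oregon at 4 °C, 36 fell and 1 rose in Fantasy Love at 6 °C, and 39 fell and 3 rose in Fantasy Love at 4 °C. Over all genes tested, 20.1%, 20.6%, 16.6% and 21.6% fell in these comparisons, and 28.3%, 28.4%, 23.8% and 28.5% rose. Their median log2 fold changes were -1.16, -1.05, -1.23 and -1.37, beside 0.36, 0.39, 0.30 and 0.39 over all genes tested. With library size alone, 31 fell and 6 rose, 28 fell and 5 rose, 30 fell and 2 rose, and 31 fell and 8 rose in the same order. Without replicate 2 of Fantasy Love at 6 °C, 40 fell and 2 rose in that cultivar at 6 °C. The members that fell in both cultivars were 29 at 6 °C, which is 80.6% of those in each cultivar, and 30 at 4 °C, which is 83.3% of those in Oregon and 76.9% of those in Fantasy Love. Here too the overlap over all genes tested is not given.

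By class, 18 of 39 tested PLS groups and 18 of 31 other PPR groups fell in Oregon at 6 °C, 22 and 14 in Oregon at 4 °C, 17 and 19 in Fantasy Love at 6 °C, and 20 and 19 in Fantasy Love at 4 °C. The shares of all genes tested that fell were 20.1%, 20.6%, 16.6% and 21.6% in that order. All called rises were in the PLS class, where 28.3%, 28.4%, 23.8% and 28.5% of all genes tested rose. The class was assigned from protein names and a DYW domain in the annotation.

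At2g31400 (DN51806_c0_g3) is in Arabidopsis GUN1, which relays the state of the plastid to the nucleus. It had 19.8, 21.4 and 35.2 CPM in Oregon at 6 °C and 40.3, 63.4 and 65.4 CPM in Oregon at 4 °C, against 169, 188 and 171 CPM in Oregon at 25 °C. In Fantasy Love it had 40.7, 25.6 and 19.5 CPM at 6 °C and 13.1, 13.1 and 13.8 CPM at 4 °C, against 135, 125 and 134 CPM at 25 °C. All cold libraries were below the controls, and the log2 fold changes of At2g31400 (DN51806_c0_g3) were -2.79 ± 0.28 and -1.64 ± 0.27 in Oregon at 6 °C and 4 °C and -2.20 ± 0.27 and -3.30 ± 0.28 in Fantasy Love at 6 °C and 4 °C. The difference between the cultivars at 4 °C was -1.66 ± 0.37 (SE, edgeR adjusted p = 0.00832). A second group with this name, DN51806_c0_g1, stayed under 3 CPM in every library and was not called.

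Other PPR proteins outside the PLS class fell as well. At5g13770 (DN37768_c0_g1) had 2.13, 3.34 and 5.25 CPM in Oregon at 6 °C and 0.845, 2.63 and 3.02 CPM in Oregon at 4 °C, against 65.0, 45.4 and 48.4 CPM in Oregon at 25 °C. In Fantasy Love, At5g13770 had 4.72, 4.61 and 2.04 CPM at 6 °C and 4.81, 3.36 and 4.08 CPM at 4 °C, against 34.8, 36.2 and 37.7 CPM at 25 °C. The groups did not overlap, and the log2 fold changes of At5g13770 were -3.88, -4.59, -3.26 and -3.15 in Oregon at 6 °C, Oregon at 4 °C, Fantasy Love at 6 °C and Fantasy Love at 4 °C. At5g46580 (DN41482_c0_g4), known in Arabidopsis as SOT1 and needed to process plastid ribosomal RNA, had 6.996, 6.96 and 10.1 CPM in Oregon at 6 °C and 7.85, 15.0 and 15.95 CPM in Oregon at 4 °C, against 64.2, 58.9 and 50.1 CPM in Oregon at 25 °C. In Fantasy Love, At5g46580 had 13.1, 10.97 and 9.96 CPM at 6 °C and 14.1, 12.0 and 8.86 CPM at 4 °C, against 43.7, 30.2 and 36.2 CPM at 25 °C. It fell by 2.85, 2.16, 1.70 and 1.66 in the same order, with no overlap.

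DG1, whose loss delays greening in Arabidopsis, was matched by DN38130_c1_g2 and DN44224_c0_g4, and both fell in all 4 comparisons. DN38130_c1_g2 fell by 3.29, 2.81, 3.04 and 3.00, and DN44224_c0_g4 by 3.21, 1.47, 1.77 and 1.96, in Oregon at 6 °C, Oregon at 4 °C, Fantasy Love at 6 °C and Fantasy Love at 4 °C. HCF152 (DN45128_c0_g3), which processes a polycistronic photosystem and cytochrome transcript, had 4.33, 8.12 and 3.74 CPM in Fantasy Love at 6 °C and 5.52, 5.87 and 6.53 CPM in Fantasy Love at 4 °C, against 23.6, 17.2 and 14.5 CPM in Fantasy Love at 25 °C. HCF152 fell there by 1.77 and 1.62. In Oregon its log2 fold change was -1.03 at 6 °C, a call lost without replicate 1 of Oregon at 6 °C or at 25 °C and under 5 other settings, and -0.67 at 4 °C, not called. At2g18940 (DN43863_c0_g1), the match of maize PPR10 that guards the ends of plastid messengers, fell by 1.11, 1.05, 1.10 and 1.16 in the 4 comparisons, all near the fold minimum and none called with library size alone. The Oregon call at 4 °C was also lost without replicate 1 of Oregon at 4 °C and the Fantasy Love call at 6 °C without replicate 2 of Fantasy Love at 6 °C. Of the 3 MRL1 groups, DN54947_c1_g1 fell by 1.54 in Fantasy Love at 4 °C and DN45224_c2_g2 by 1.11 and 1.33 in Fantasy Love at 6 °C and 4 °C, the fall at 6 °C being lost without replicate 2 of that group. DN43770_c2_g1 fell by 1.40 and 1.03 in Oregon at 6 °C and 4 °C and by 1.96 and 1.93 in Fantasy Love at 6 °C and 4 °C. The Oregon call at 4 °C was lost without replicate 1 of that group or replicate 1 or 2 of Oregon at 25 °C and under 6 other settings. The group matched to At4g16390 (P67, DN48457_c0_g1), known in Arabidopsis as SVR7, had 19.3, 7.21 and 11.6 CPM in Fantasy Love at 6 °C and 13.6, 15.7 and 11.3 CPM in Fantasy Love at 4 °C, against 39.03, 42.5 and 39.2 CPM in Fantasy Love at 25 °C. It fell there by 1.66 and 1.57, and in Oregon its log2 fold changes were -0.75 and -0.78, not called.

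Other members, PTAC2, EMB2453, PPR4, PGR3 and the abundant At2g30100 among them, were not called in any of the 4 comparisons. PTAC2 (DN49904_c2_g1), a partner of the plastid RNA polymerase, had 18.01, 20.1 and 20.2 CPM in Oregon at 6 °C and 27.1, 27.1 and 34.4 CPM in Oregon at 4 °C, against 26.8, 19.5 and 25.96 CPM in Oregon at 25 °C. Its log2 fold changes were -0.31 and 0.29 in Oregon at 6 °C and 4 °C and -0.81 and -0.14 in Fantasy Love at 6 °C and 4 °C. EMB2453 (DN42988_c1_g1), the match of maize PPR5, which protects a transfer RNA precursor, had log2 fold changes of 0.14, 0.69, 0.39 and 0.41 in Oregon at 6 °C, Oregon at 4 °C, Fantasy Love at 6 °C and Fantasy Love at 4 °C. The main PPR4 group (DN56953_c1_g1), a splicing factor in maize, had -0.74, -0.48, -0.50 and -0.61 in the same order. PGR3 (DN42318_c0_g2), which stabilises and helps translate plastid messengers, reached at most 1.79 CPM in any library, and its log2 fold changes of 1.14 to 2.04 were not called. At2g30100 (DN44225_c0_g1), the most abundant PPR member, had 62.3, 70.03 and 57.6 CPM in Oregon at 6 °C and 74.2, 65.4 and 72.3 CPM in Oregon at 4 °C, against 69.3, 57.8 and 51.7 CPM in Oregon at 25 °C. In Fantasy Love, At2g30100 had 66.2, 76.7 and 70.04 CPM at 6 °C and 75.2, 83.7 and 77.6 CPM at 4 °C, against 55.1, 45.7 and 48.6 CPM at 25 °C, with log2 fold changes of 0.51 and 0.66 that stayed below the fold minimum.

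**Figure D4:**
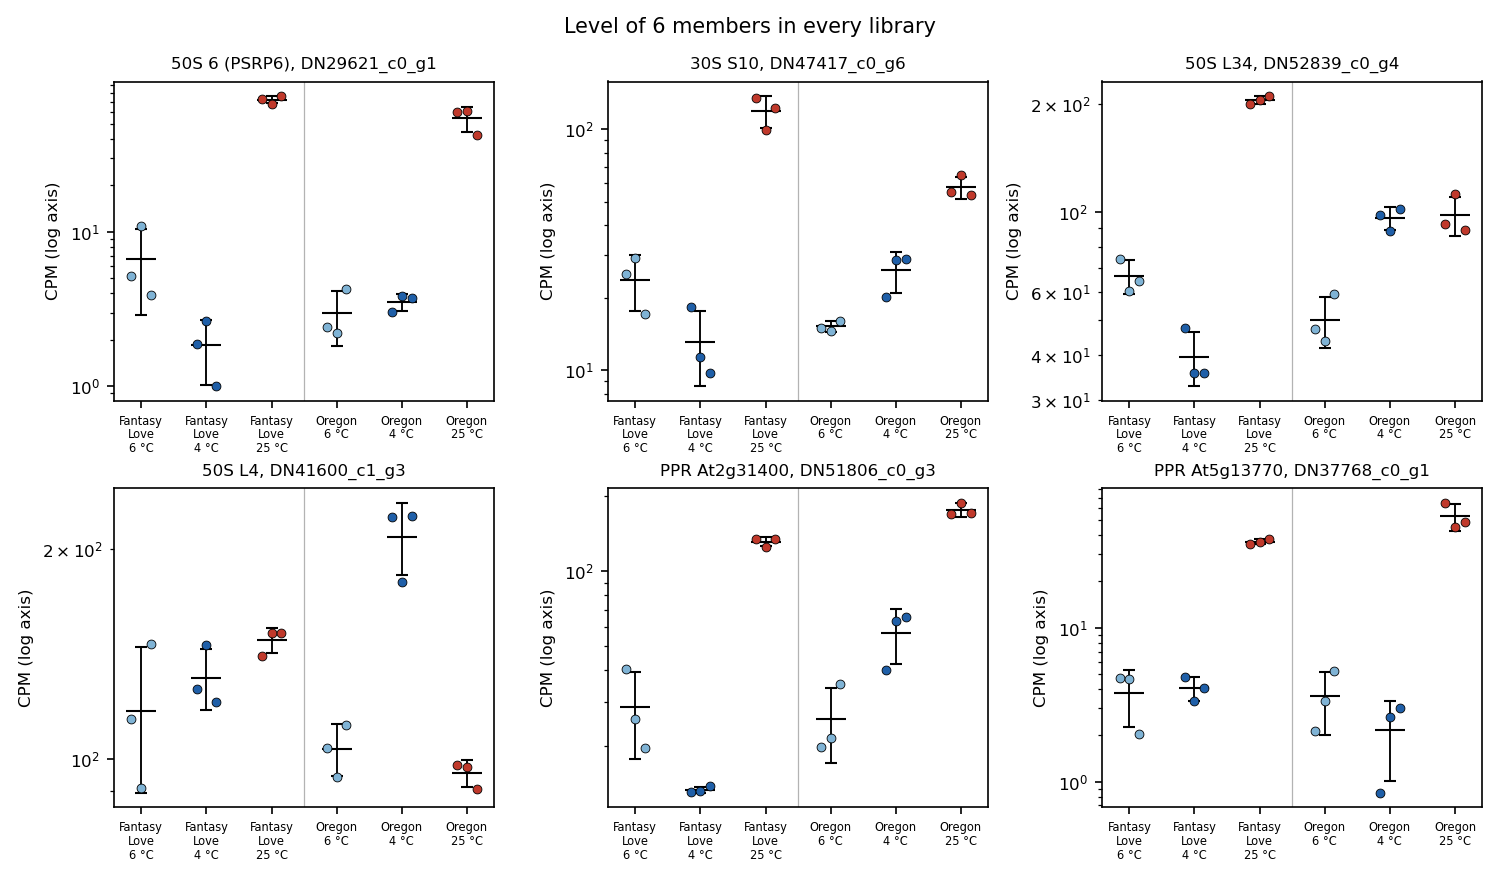
Level in CPM, on log axes, of 6 members in every library, with the mean and SD of 3 libraries as bars: PSRP6, RPS10, RPL34, RPL4 and the PPR proteins At2g31400 and At5g13770. RPL34 at 4 °C overlaps its controls in Oregon and lies at 35.5 to 47.5 CPM in Fantasy Love, against 199.6 to 210.2 CPM in its controls.

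Among the editing factors of the PLS class, the name At1g08070, in Arabidopsis the editing factor OTP82, was matched by 9 tested groups that moved in both directions. DN50435_c1_g2 had 0.122, 0.340 and 0.191 CPM in Oregon at 6 °C and 0.302, 0.279 and 0.175 CPM in Oregon at 4 °C, against 9.84, 7.80 and 8.59 CPM in Oregon at 25 °C, falls of 5.28 and 5.09 on the log2 scale. In Fantasy Love, DN50435_c1_g2 had 2 counts in all at 4 °C, against 181 counts at 25 °C, a ratio of 111-fold with an exact 95% interval of 30.3 to 924 that covers counting error only. The groups DN45452_c0_g1, DN45786_c1_g5 and DN44244_c2_g3 also fell in all 4 comparisons, by 2.15 to 4.55 on the log2 scale. In Fantasy Love the group DN47772_c2_g1 fell by 1.98 at 6 °C and 2.40 at 4 °C, the call at 6 °C being lost without replicate 1 of that group or replicate 1 or 2 of Fantasy Love at 25 °C. Other groups with this name rose: DN50250_c0_g7 by 2.12 in Oregon at 6 °C, and DN41402_c0_g1 by 1.01 in Oregon at 4 °C and 1.26 in Fantasy Love at 4 °C. The rise of DN41402_c0_g1 in Oregon was lost without any 1 of the 3 Oregon libraries at 4 °C, replicate 2 or 3 of Oregon at 25 °C or replicate 1 of Fantasy Love at 6 °C. Its rise in Fantasy Love was lost without replicate 2 of Fantasy Love at 25 °C.

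The name CRR2, in Arabidopsis a factor that processes a messenger of the NDH complex, was likewise shared by 3 groups. DN48717_c0_g1 had 8.88, 11.6 and 12.5 CPM in Oregon at 6 °C and 7.42, 11.5 and 10.0 CPM in Oregon at 4 °C, against 3.68, 2.60 and 3.29 CPM in Oregon at 25 °C, and rose by 1.78 and 1.60. In Fantasy Love, DN48717_c0_g1 had 4.39, 1.95 and 3.80 CPM at 6 °C and 7.45, 8.80 and 9.07 CPM at 4 °C, against 1.16, 2.44 and 1.40 CPM at 25 °C. It rose by 2.33 there at 4 °C without overlap; at 6 °C the libraries overlapped and its rise of 1.01 was lost without replicate 1 or 3 of Fantasy Love at 6 °C or at 25 °C. DN40277_c0_g1 and DN49362_c1_g4, with the same name, fell in all 4 comparisons, by 4.64 and 2.85 in Oregon at 6 °C, 3.12 and 3.12 in Oregon at 4 °C, 2.28 and 1.68 in Fantasy Love at 6 °C, and 3.18 and 2.97 in Fantasy Love at 4 °C. The Fantasy Love falls at 6 °C were lost without replicate 3 of that group, and that of DN40277_c0_g1 also without replicate 1 or 2 of Fantasy Love at 25 °C. Since names come from best matches, which of the 3 is the counterpart of CRR2 was not tested. The other rises were of EMB2261 (At3g49170, DN55198_c2_g1), by 1.07 in Oregon at 6 °C, a call lost without any 1 of the 6 libraries compared, and of a group of At3g57430 (DN46185_c0_g2), by 1.45 in Fantasy Love at 4 °C. The At3g57430 group had 10.6, 8.27 and 9.48 CPM in Fantasy Love at 4 °C, against 3.93, 3.86 and 2.55 CPM in Fantasy Love at 25 °C, without overlap.

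CRR4 and DYW1 act together in Arabidopsis to edit the start codon of the ndhD messenger. CRR4 (DN54121_c0_g1) had 1.58, 1.47 and 0.239 CPM in Oregon at 6 °C and 0.241, 1.95 and 1.23 CPM in Oregon at 4 °C, against 6.09, 4.23 and 3.56 CPM in Oregon at 25 °C. In Fantasy Love, CRR4 (DN54121_c0_g1) had 2.03, 1.88 and 1.60 CPM at 6 °C and 1.89, 2.56 and 1.58 CPM at 4 °C, against 10.8, 16.3 and 13.9 CPM at 25 °C. It fell by 2.08, 1.98, 2.89 and 2.77 in Oregon at 6 °C, Oregon at 4 °C, Fantasy Love at 6 °C and Fantasy Love at 4 °C, without overlap. A second CRR4 group (DN40479_c0_g2) was called in none of the 4. DYW1 (DN46647_c0_g3, spelled DWY1 in the annotation) had 5.06, 3.44 and 4.68 CPM in Fantasy Love at 6 °C, against 36.7, 30.3 and 32.5 CPM in Fantasy Love at 25 °C. It had 7.48, 10.5 and 11.2 CPM in Oregon at 6 °C, against 16.5, 14.6 and 15.8 CPM in Oregon at 25 °C. Its log2 fold change at 6 °C was -2.91 in Fantasy Love and -0.68 in Oregon, not called, a difference of -2.23 ± 0.36 (SE, edgeR adjusted p = 0.00102). At 4 °C DYW1 fell by 2.47 in Fantasy Love and by 1.40 in Oregon. Groups matched to CRR22 (At1g11290, DN42165_c0_g5) and to CRR28 (At1g59720, DN52649_c0_g1), which edit other NDH messengers in Arabidopsis, also fell in all 4 comparisons. The falls were 1.13 to 3.00 and 1.03 to 1.95. The smallest of these falls lay near the fold minimum, without overlap, and their calls were lost when some single libraries were left out. The call of DN42165_c0_g5 in Oregon at 4 °C was lost without replicate 1 or 3 of Oregon at 4 °C or replicate 2 of Oregon at 25 °C. The call of CRR28 in Fantasy Love at 6 °C was lost without replicate 3 of that group or replicate 1 of Fantasy Love at 25 °C. Another group with the name At1g11290, DN45228_c0_g1, had 0.00, 0.00 and 0.166 CPM in Fantasy Love at 4 °C, against 3.60, 5.27 and 7.15 CPM in Fantasy Love at 25 °C, and fell in all 4 comparisons. Of the other tested groups of that name, DN46971_c0_g1 fell by 1.65 and 1.03 in Fantasy Love at 6 °C and 4 °C, and DN47467_c0_g3 and DN54392_c0_g1 were called in none of the 4. Which group of that name is the counterpart of CRR22 was not tested. The group DN37494_c1_g1 of At1g15510, known in Arabidopsis as ECB2, fell by 1.06 in Oregon at 4 °C, a call lost without any 1 of 9 libraries. The groups of CLB19 (At1g05750) and CRR21 were too low to test.

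**Figure D5:**
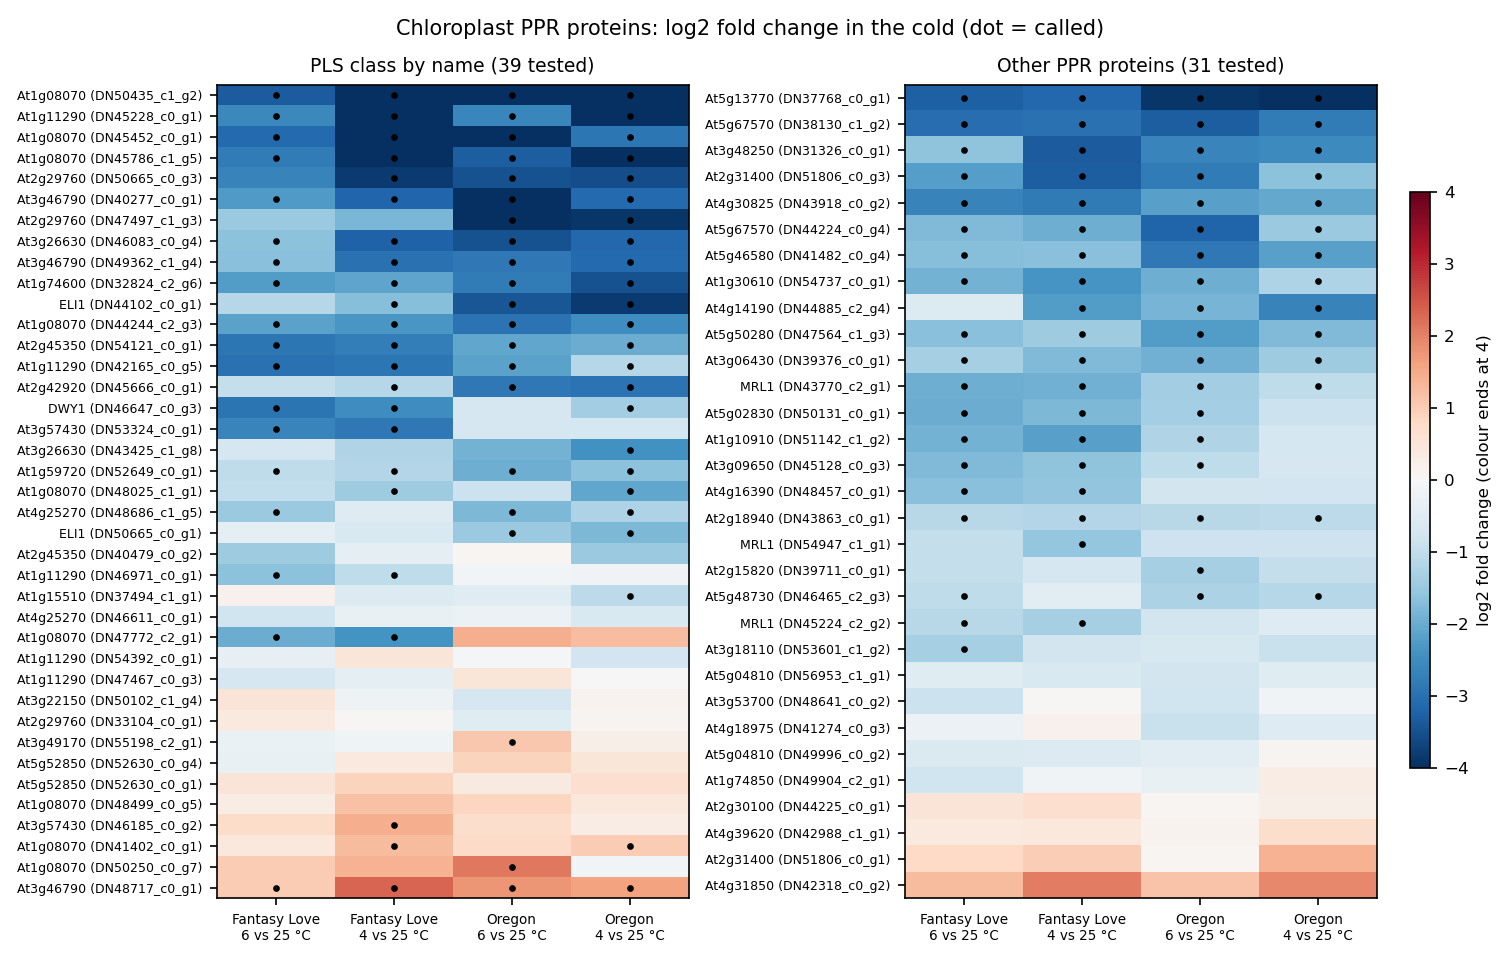
Log2 fold change of each tested PPR group (rows, with protein name and group) in the 4 comparisons of cold with 25 °C (columns), by class; blue is lower and red is higher in the cold, and a dot marks a called change. Groups that share a protein name, such as At1g08070 and At3g46790 (CRR2), appear at both ends of the PLS panel.

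The cultivars were also compared for the PPR members, and the 2 families were not tested against each other. For the response to 4 °C, 5 of 70 differed, all with a lower value in Fantasy Love, where 5.04% of all genes tested were lower, and for the response to 6 °C 3 of 70 did, where 3.97% were lower. Both counts lie near these shares and are not read as a trait of the family. The median differences over the 70 members were -0.08 and 0.19, beside -0.01 and 0.03 over all genes tested. At 4 °C the 5 were At2g31400 (DN51806_c0_g3), EMB2279 (DN54737_c0_g1), named for embryo defects of the Arabidopsis mutant, At1g10910 (DN51142_c1_g2) and groups of At3g57430 (PCMP-H81, DN53324_c0_g1) and At1g08070 (DN47772_c2_g1). EMB2279 had 6.70, 10.6 and 6.78 CPM in Fantasy Love at 4 °C, against 42.2, 35.8 and 46.2 CPM in Fantasy Love at 25 °C, and 24.2, 25.2 and 27.1 CPM in Oregon at 4 °C, against 62.7, 63.2 and 54.9 CPM in Oregon at 25 °C. It fell in both, by 2.37 and 1.24, with a difference of -1.13 ± 0.28 (edgeR adjusted p = 0.0154). DYW1 and, again, the groups of At3g57430 and At1g08070 made up the 3 at 6 °C. The calls of At2g31400, EMB2279 and DYW1 held with each library left out, and the others did not. The counts depended on the test: at 4 °C, 8 were lower and 1 was higher with DESeq2 and 6 were lower and 3 were higher with quantile scaling and limma, and at 6 °C quantile scaling and limma gave 4 lower and 3 higher. They ranged from 2 to 10 at 4 °C and from 1 to 14 at 6 °C when 1 library was left out. The highest values were 10 at 4 °C without replicate 2 of Fantasy Love at 6 °C and 14 at 6 °C without replicate 3 of Fantasy Love at 6 °C.

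At 25 °C, 4 of 70 PPR members were higher in Fantasy Love than in Oregon and 1 was lower, where 8.35% and 7.05% of all genes tested were. Neither count exceeds those shares. DYW1 had 36.7, 30.3 and 32.5 CPM in Fantasy Love, against 16.5, 14.6 and 15.8 CPM in Oregon. ELI1 (DN50665_c0_g1), an editing factor, had 20.4, 22.1 and 20.7 CPM in Fantasy Love, against 10.5, 8.46 and 9.79 CPM in Oregon. Their log2 fold changes were 1.09 and 1.14, and neither call depended on any 1 library. The others were a group of At1g11290 (DN42165_c0_g5) and At1g10910, higher by 1.21 and 1.02, and At2g42920 (PCMP-E75, DN45666_c0_g1), with -1.38. Each of these 3 calls was lost without 4 or more of the libraries in turn. Between the cold steps, 2 of 70 members were higher and none was lower at 4 °C than at 6 °C in Oregon. Over all genes tested there, 0.91% were higher and 1.32% were lower. In Fantasy Love 1 was higher and 6 were lower, where 1.83% of all genes tested were higher and 7.19% were lower. The 6 lower members are near that share. The 2 in Oregon were DG1 (DN44224_c0_g4) and At2g31400 (DN51806_c0_g3), by 1.74 and 1.14, and both were lost without replicate 2 or 3 of Oregon at 4 °C or replicate 1 or 2 of Oregon at 6 °C. In Fantasy Love, At2g31400 was lower by 1.10 at 4 °C than at 6 °C, a call lost without replicate 2 of Fantasy Love at 4 °C or replicate 1 of Fantasy Love at 6 °C. None of the 7 Fantasy Love calls between the cold steps held with every library left out.

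Other genes of plastid gene expression are given as counts, in the order Oregon at 6 °C, Oregon at 4 °C, Fantasy Love at 6 °C and Fantasy Love at 4 °C. Of 14 chloroplast translation factors, 8, 2, 10 and 7 fell and 0, 0, 0 and 1 rose. Over all genes tested, 20.1%, 20.6%, 16.6% and 21.6% fell and 28.3%, 28.4%, 23.8% and 28.5% rose in these comparisons, and the 2 translation factors that fell in Oregon at 4 °C are 14.3% of the list, below that share. In Fantasy Love, 6 of the 14 had a lower response to 4 °C than in Oregon, where 5.04% of all genes tested did. Of 25 chloroplast tRNA ligases, 12, 8, 13 and 14 fell and 1, 2, 1 and 1 rose, and 10 had a lower response to 4 °C in Fantasy Love. Of 33 other chloroplast RNA processing proteins, 15, 11, 18 and 18 fell and 1, 6, 0 and 1 rose. Of 17 proteins of chloroplast transcription, 14, 9, 13 and 13 fell and 0, 1, 0 and 0 rose. Of 13 tested ribosomal genes named like plastid genes, 2, 2, 2 and 3 fell and 1, 1, 2 and 1 rose. In each of the first 4 lists, more members fell than rose in every one of these comparisons.

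Organelle and cytosolic relatives are given in the same order, beside the same shares of all genes tested. Of 94 tested PPR proteins named mitochondrial, 37, 37, 19 and 21 fell and 6, 6, 3 and 7 rose. The falls are 39.4%, 39.4%, 20.2% and 22.3% of that list, near the share of all genes in both Fantasy Love comparisons. Of 175 tested PPR proteins with no compartment in the name, 60, 74, 52 and 55 fell and 24, 17, 14 and 33 rose. Of 15 mitochondrial ribosomal proteins, 4, 4, 1 and 3 fell and 1, 3, 1 and 1 rose. Of 263 tested cytosolic ribosomal proteins, 57, 98, 130 and 73 rose and 19, 11, 12 and 10 fell. The rises are 21.7%, 37.3%, 49.4% and 27.8% of the list, below the share of all genes in Oregon at 6 °C and near it in Fantasy Love at 4 °C. Cytosolic ribosomal transcripts had more rises than falls in each comparison, and chloroplast ribosomal transcripts more falls than rises, except that with library size alone the chloroplast count in Oregon at 4 °C was 8 falls and 9 rises.

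Cell-type markers are given as well, and they did not all move in the same direction. Summed transcripts of 26 leaf mesophyll markers, the Rubisco small subunit and the chlorophyll-binding proteins, were 5615 to 11589 CPM in Oregon in the cold, against 69813 to 91034 CPM in Oregon at 25 °C. In Fantasy Love they were 3862 to 11355 CPM in the cold, against 78001 to 89379 CPM in Fantasy Love at 25 °C. Most of the mean cold sums was a group of RBCS (DN57201_c1_g3). It averaged 5533.7 and 9186.5 CPM in Oregon at 6 °C and 4 °C, against 11660 CPM at 25 °C. In Fantasy Love it averaged 6755.5 and 4195.5 CPM at 6 °C and 4 °C, against 18973.7 CPM at 25 °C. The chlorophyll-binding LHCA4 (DN43470_c0_g6) averaged 7.201 and 9.926 CPM in Oregon at 6 °C and 4 °C, against 8327.7 CPM at 25 °C. Of the 17 mesophyll markers tested, 16, 15, 16 and 16 fell in Oregon at 6 °C, Oregon at 4 °C, Fantasy Love at 6 °C and Fantasy Love at 4 °C. Of the 26, 6 were at 0 in the 25 °C libraries of both cultivars and in every cold group but Oregon at 4 °C. There they averaged 0.264 to 3.12 CPM. The 12 guard cell markers summed to 133 to 234 CPM in Oregon in the cold, against 114 to 125 CPM in Oregon at 25 °C. They summed to 96.9 to 232 CPM in Fantasy Love in the cold, against 116 to 122 CPM at 25 °C. Most of these sums was 1 group of SCRM (DN53571_c0_g2), which averaged 199 and 132 CPM in Oregon at 6 °C and 4 °C, against 78.1 CPM at 25 °C, and 119 and 125 CPM in Fantasy Love at 6 °C and 4 °C, against 61.1 CPM at 25 °C. The far lower SCRM groups DN53571_c0_g3 and DN49494_c0_g1 averaged less in every cold group than in their controls, and DN53571_c0_g5 averaged more. The guard cell sums thus follow a single group. Of the 11 guard cell markers tested, 4, 5, 2 and 4 fell and 3, 2, 3 and 3 rose, in the same order as the mesophyll markers. Over all genes tested, 20.1%, 20.6%, 16.6% and 21.6% fell and 28.3%, 28.4%, 23.8% and 28.5% rose in this order. Whether the guard cell counts differ from these shares was not tested. Of the 2 groups named FAMA, 1 was at 0 at 4 °C in both cultivars, and the other averaged 0.276 CPM in Fantasy Love and 0.157 CPM in Oregon at 4 °C. The 11 xylem markers summed to 146 to 223 CPM in Oregon in the cold, against 1043 to 1381 CPM at 25 °C, and to 76.3 to 268 CPM in Fantasy Love in the cold, against 713 to 847 CPM at 25 °C. The largest part was a group of CESA8 (DN47563_c0_g1), which averaged 541 CPM in Oregon and 366 CPM in Fantasy Love at 25 °C. Not every xylem marker was lower in the cold. XCP1 (DN39577_c3_g3) averaged 2.77 CPM in Oregon at 6 °C, against 0.512 CPM at 25 °C. In Fantasy Love, XCP1 averaged 8.24 CPM at 6 °C and 0.0139 CPM at 4 °C, against 0.895 CPM at 25 °C. The 5 epidermis markers summed to 39.7 to 73.4 CPM in Oregon in the cold, against 186 to 224 CPM at 25 °C. In Fantasy Love they summed to 50.1, 331 and 58.4 CPM at 6 °C and 3.16 to 5.60 CPM at 4 °C, against 296 to 449.9 CPM at 25 °C. Of the 3 groups named CUT1, 1 was at 0 at 4 °C in both cultivars. The others averaged 0.519 and 0.271 CPM in Fantasy Love at 4 °C and 0.716 and 3.19 CPM in Oregon at 4 °C. The 2 phloem markers summed to between 4.24 and 23.1 CPM in all libraries, nearly all of it APL (DN40486_c0_g1). The other, SEOB (DN53200_c0_g5), averaged at most 0.285 CPM in any group. The part of these cell-type markers in the changes of either family was not tested.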

How the data were processed

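RNA-seq was made from leaves in 18 libraries of 6 groups. The authors deposited 1 table of 132108 transcript groups with estimated counts and TPM per library, and a length in bases, per the file headers; 4.207% of the count values have decimals. Cutadapt 1.9 is named in the submitters' processing notes; assembler, quantifier and settings are not given in these sources, and no sequences of the groups were used. Deposited TPM is scaled to length and library and was used only for levels. Protein names are best matches of the deposited annotation (Arabidopsis for every PPR member), and groups with like sequence can share reads.

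Estimated counts were rounded and filtered (filterByExpr, minimum count 10, minimum total 15; 51670 groups kept). They were scaled by TMM and fitted with edgeR 4.0.16 (quasi-likelihood, 6 group means, all 18 libraries, R 4.3.3). Benjamini-Hochberg adjustment ran over all groups tested, for each of 9 comparisons. SE was taken as the size of the log2 fold change over the root of F. Beside DESeq2 1.42.0 and limma 3.58.1, other filters, scalings and fits were tried. The fit was tested on simulated data. Members, lists and classes were chosen with earlier results of these data known. Named genes were the 3 most abundant of each class, the 3 largest called rises and falls per class and cold comparison with a group mean of at least 2 CPM in the higher group, the 2 called members of lowest adjusted p per family in each other comparison, PPR members of known role, and the plastid-specific, S1, L1 and L12 ribosomal proteins. A further protein that the rule names is not reported here. Other members were named after their values were seen. Same-numbered libraries of a cultivar had residual correlations of -0.066 to 0.104 over 18 pairs, so the numbers were not taken to pair samples. The design text speaks of repeated experiments, and which of them a library stands for is not given; p-values cover the spread between these libraries. Plastid RNA capture and strand are not given.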

Additional observations from a re-analysis of the deposited data

Results flagged for a closer look

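For these members the response to cold differed between the cultivars by the test of the difference itself (Fantasy Love minus Oregon, log2 scale, edgeR adjusted p below 0.05 and a size of at least 1). For the response to 4 °C, the values of the small-subunit proteins were -2.39 for PSRP3 (DN39629_c0_g1), -2.15 for PSRP3 (DN40243_c2_g5), -2.04 for RPS10, -1.45 for RPS9, -1.27 for RPS31 and -1.06 for RPS13. Those of the large-subunit proteins were -2.35 for RPL34, -2.21 for RPL29, -1.60 for RPL17, -1.39 for RPL35, -1.31 for RPL4, -1.31 for RPL9, -1.29 for L19-1 (At4g17560), -1.26 for RPL6, -1.19 for RPL15 and -1.01 for RPL12. Those of the PPR proteins were -3.62 for At1g08070 (PCMP-H12, DN47772_c2_g1), -2.14 for At3g57430 (PCMP-H81, DN53324_c0_g1), -1.66 for At2g31400, -1.48 for At1g10910 and -1.13 for EMB2279.

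For the response to 6 °C, the values were -3.43 for At1g08070 (PCMP-H12, DN47772_c2_g1), -2.23 for DYW1, -1.99 for At3g57430 (PCMP-H81, DN53324_c0_g1) and 1.29 for RPL3B. The group DN47772_c2_g1 had 0.225, 0.00 and 1.38 CPM in Fantasy Love at 6 °C, against 2.77, 2.01 and 1.72 CPM in Fantasy Love at 25 °C, and 6.88, 7.08 and 6.53 CPM in Oregon at 6 °C, against 3.19, 1.75 and 2.55 CPM in Oregon at 25 °C. Its Oregon change was not called.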

How the results depend on the processing

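Of 296 called results of single members, 217 were kept under each other setting run and 230 with each of the 18 libraries left out in turn, and none changed sign. Library sizes alone, without TMM, chosen after seeing the data, ended 55 calls. The 31 PPR groups and 1 ribosomal group that were not tested had too few counts to pass the filter. The reason for their low counts was not tested.

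The fit with the replicate number as a block moved no count of calls by over 1.5 times. It gave 19, 16, 24 and 24 ribosomal and 39, 36, 39 and 43 PPR calls in Oregon at 6 °C, Oregon at 4 °C, Fantasy Love at 6 °C and Fantasy Love at 4 °C. Between the cold steps the block gave 3 ribosomal and 2 PPR calls in Oregon and 4 and 5 in Fantasy Love. For Fantasy Love against Oregon at 25 °C it gave 11 and 5, for the difference in response to 6 °C 1 and 4, and for that to 4 °C 16 and 5.

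With 1 library left out, ribosomal counts ran from 18 to 19 in Oregon at 6 °C, 14 to 17 in Oregon at 4 °C, 23 to 25 in Fantasy Love at 6 °C and 23 to 28 in Fantasy Love at 4 °C. They ran from 1 to 8 in Oregon and 3 to 7 in Fantasy Love between the cold steps, 8 to 12 between the cultivars at 25 °C, and 1 to 4 and 14 to 22 for the differences in response to 6 °C and 4 °C. PPR counts ran in the same order from 36 to 41, 30 to 40, 32 to 42, 39 to 45, 0 to 4, 0 to 10, 2 to 8, 1 to 14 and 2 to 10. For PPR proteins between the cold steps, the Oregon count of 2 was 4 without replicate 2 or 3 of Fantasy Love at 6 °C and 0 without replicate 2 or 3 of Oregon at 4 °C or 1 or 2 of Oregon at 6 °C. The Fantasy Love count of 7 was 4 without replicate 1 or 3 of Fantasy Love at 4 °C or 2 of Fantasy Love at 6 °C, and 0 without replicate 2 of Fantasy Love at 4 °C. The PPR count of 5 between the cultivars at 25 °C was 2 or 3 without any 1 of the Oregon controls or replicate 2 or 3 of the Fantasy Love controls, and 8 without replicate 3 of Fantasy Love at 6 °C. The PPR count of 3 for the response to 6 °C was 1 without any 1 of the Oregon controls, replicate 2 of the Fantasy Love controls or replicate 1 or 2 of Oregon at 6 °C, 5 without replicate 2 of Fantasy Love at 6 °C or 1 of Oregon at 4 °C, and 7 and 14 without replicates 1 and 3 of Fantasy Love at 6 °C. The PPR count of 5 for the response to 4 °C was 2 or 3 without any 1 of the Oregon controls, replicate 3 of the Fantasy Love controls, replicate 1 or 3 of Fantasy Love at 4 °C or 3 of Oregon at 4 °C, and 8 and 10 without replicates 1 and 2 of Fantasy Love at 6 °C.

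Other settings moved these counts by over 1.5 times, and the cause was not tested. With no fold minimum, ribosomal counts were 29 in Oregon at 6 °C, 29 in Oregon at 4 °C, 11 in Oregon and 8 in Fantasy Love between the cold steps, 19 between the cultivars at 25 °C and 3 for the response to 6 °C. The ribosomal count for Fantasy Love between the cold steps was 1 with library sizes alone, 0 with only the groups compared and 1 with quantile scaling. That for the response to 6 °C was 2 with DESeq2, its size factors, library sizes alone or quantile scaling and 0 with no filter. PPR counts between the cold steps were, in Oregon, 4 with DESeq2, 1 with library sizes alone and 5 with only the groups compared, and, in Fantasy Love, 3 with library sizes alone and 0 with only the groups compared. Between the cultivars at 25 °C they were 8 with DESeq2, 2 with no filter and 11 with only the groups compared. For the response to 6 °C they were 6 with DESeq2, 1 with only the groups compared and 7 with quantile scaling. For the response to 4 °C they were 9 with DESeq2, 8 with at least 50 counts in 3 libraries, 8 with DESeq2 size factors, 10 with only the groups compared and 9 with quantile scaling.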
